A study of Mus musculus with 4 samples.

Results

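The genes examined here encode the proteins of the cytosolic ribosome. They were taken as every row of the count table whose symbol starts with Rpl (large subunit) or Rps (small subunit), leaving out the Rps6k kinases and symbols marked -ps as pseudogenes, which gave 86 of 23366 symbols, 52 Rpl and 34 Rps. One of them, Rps19bp1, encodes a protein that binds Rps19 and is not itself a ribosomal protein. RNA was sequenced from medullary thymic epithelial cells (mTECs), the thymic stromal cells that display tissue-restricted antigens to developing T cells, sorted as PI- CD45- MHCII+ Ly51low. The cells came from wild-type C57BL/6 mice aged 6 to 8 weeks, and each of the 4 libraries was a pool of 10 mice, 2 pools female and 2 male. The series set male against female expression in these cells, and the spread between pools is the only replicate error available.

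Each cytosolic ribosome joins 1 copy of almost every one of these proteins with the ribosomal RNAs, so cells make the proteins in near-equal numbers from short, very abundant mRNAs. The mRNAs begin with a run of pyrimidines, the terminal oligopyrimidine (TOP) tract, through which mTOR signalling sets their translation. Mammalian genomes also carry many processed copies of these genes, made when a spliced mRNA was copied back into DNA, and a few copies are expressed genes in their own right.

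Likeness between copies bears on where a short read can be placed, and 2 pairs of sequences show a lower and a higher likeness. Rps27 (chr3:90016593-90017573, minus strand, mm9) and its expressed relative Rps27l (chr9:66793893-66797323, plus strand) have coding sequences of 255 bases each that differ at 61 positions, an identity of 76.1%. The differing bases are in capitals.
Rps27: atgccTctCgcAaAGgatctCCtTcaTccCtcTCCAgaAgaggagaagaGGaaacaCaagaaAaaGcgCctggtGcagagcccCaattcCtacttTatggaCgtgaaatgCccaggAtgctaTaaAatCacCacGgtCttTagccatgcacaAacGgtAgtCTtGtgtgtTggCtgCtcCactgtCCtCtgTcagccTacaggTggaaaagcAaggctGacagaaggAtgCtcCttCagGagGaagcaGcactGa
Rps27l: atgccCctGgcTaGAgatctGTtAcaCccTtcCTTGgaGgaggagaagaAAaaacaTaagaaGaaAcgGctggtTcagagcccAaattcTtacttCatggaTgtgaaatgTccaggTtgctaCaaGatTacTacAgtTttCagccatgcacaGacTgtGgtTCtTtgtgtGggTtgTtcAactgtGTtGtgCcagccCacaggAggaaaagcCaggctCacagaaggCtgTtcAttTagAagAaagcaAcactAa
The differences are spread along the whole sequence. Rpl26 (chr11:68715085-68720491, plus strand), a large subunit protein, gives the pair with the higher likeness. The 150 bases shown from its coding sequence differ at 1 position, in capitals, from a stretch of another chromosome, chr5:3236557-3236706, plus strand.
Rpl26: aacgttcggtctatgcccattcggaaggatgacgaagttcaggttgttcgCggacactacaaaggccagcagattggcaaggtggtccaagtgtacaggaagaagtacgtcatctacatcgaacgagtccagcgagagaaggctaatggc
Rpl26 copy: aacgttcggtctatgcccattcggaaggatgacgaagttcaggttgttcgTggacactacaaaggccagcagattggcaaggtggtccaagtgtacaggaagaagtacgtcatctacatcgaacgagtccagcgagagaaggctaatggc
The whole copy runs over 486 bases and differs from the Rpl26 transcript at 2 of them. Rps27 has, besides Rps27l, a closer copy still, which matches 341 bases of its transcript with 0 differences.

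Across 85 genes with an annotated transcript (all but Rpl41), a median of 64.04% of the 50-base windows of a transcript, the length of the reads, occurred elsewhere in the genome without a mismatch, and in 57 genes the share was over 50%. Among 76 genes of the mitochondrial ribosome, whose proteins are encoded separately, the median was 0% and 5 genes were over 50%. The share was 0% for Rps19bp1, Rpl3l and Rpl39l, among others, and reached 99.7% for Rps27. The table holds alignments to several places in a row of their own. By the default of the counting program such reads are not counted on genes as well, but the setting is not given in the sources used here, so whether the levels hold only reads with 1 place is not known. Levels are given as normalized CPM, the usual counts per library total with the total scaled by a TMM factor that allows for differences in composition.

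Level and the share of windows with a copy were only loosely related. Over 85 genes its Spearman correlation with the level per kilobase of coding transcript was 0.25, a description across genes that share the 4 libraries. Rpl26 had 1, 3, 3 and 8 counts in female pools 1 and 2 and male pools 1 and 2. Rps27 had 54, 39, 66 and 89, and an ungapped match to chr9:114891517-114891857 held 341 of its 345 transcript bases without a difference. Rpl30 and Rpl34 also stayed at 10 to 73 counts in a pool. Yet Rpl10, with 94.3% of its windows found elsewhere, had 3503, 2114, 7678 and 5237 counts. The low counts of Rpl26, Rpl30, Rpl34 and Rps27 are uncertain as levels of these genes. Whether copies bear on them, and how reads of a gene and its copies were divided, was not tested.

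**Figure D1:**
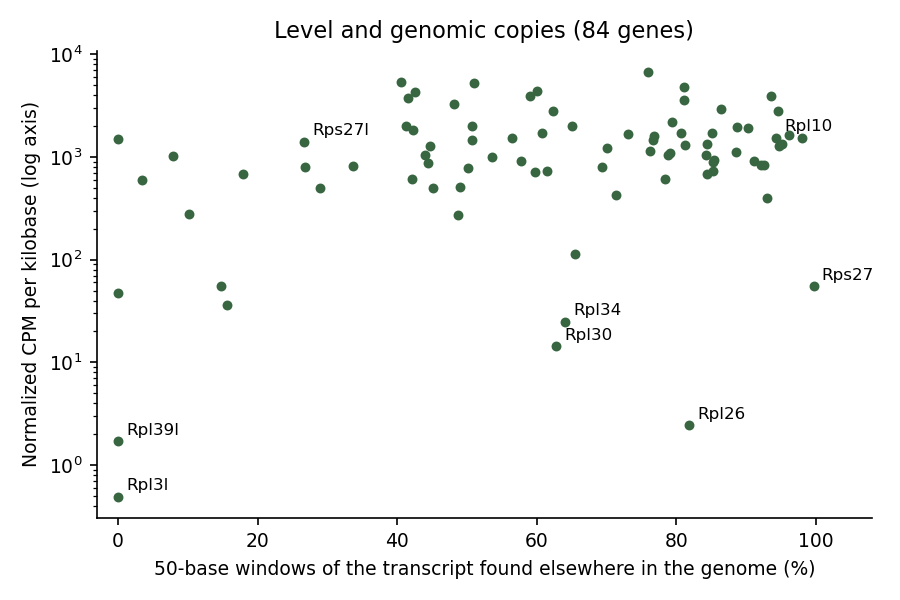
Each point is 1 of 84 genes with counts. The x axis gives the percent of 50-base windows of its transcript found elsewhere in the mouse genome, and the y axis its mean normalized CPM per kilobase of coding transcript on a log axis. Rpl26 and Rps27 lie low at 81.8% and 99.7%, whereas Rpl10 at 94.3% lies among the high genes.

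The libraries held 3508921 and 1976272 (female pools 1 and 2) and 7103627 and 3344471 (male pools 1 and 2) reads on genes. Ribosomal protein genes took 6.99% and 8.27% of these reads in females, and in males 7.11% and 12.0%. The male mean was 9.57% ± 3.48 (SD, n = 2) and the female mean 7.63% ± 0.90 (SD, n = 2). Male pool 2 stood above the other 3 pools, and the sexes overlapped.

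Marker genes were read beside the sort. The 7 mTEC markers summed to 447 and 499 normalized CPM in the females and 378 and 456 in the males. Most of each sum was Cd40, with 368 and 383 in the females and 300 and 341 in the males, so the sums mainly follow that gene. Fezf2 had 4.35 and 16.8 normalized CPM in the females and 9.68 and 15.4 in the males. Cldn3 had 1.09 and 11.9 in the females and 4.54 and 9.63 in the males. Among the 7 mTEC markers Aire, a transcription factor of mTECs, had 71, 64, 165 and 75 counts, and Ccl21a was at 0 in all 4 pools. The summed level of 9 epithelial markers was 376 and 643 in the females and 416 and 612 in the males. B cell markers, which a CD45- sort would leave out, were present with a sum of 4619 and 3028 in the females and 3812 and 2539 in the males. No epithelial or B cell marker was at 0 in any pool. RNA from more cells of a type cannot be told apart in these bulk samples from more RNA per cell. The Y chromosome genes Ddx3y, Eif2s3y, Uty and Kdm5d summed to 0.27 and 0.49 in females and to 114 and 72.8 in males, as the labels have it.

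Levels between genes are given per kilobase of the union of a gene's exons, with the mean over the 4 pools. The median gene had 549 normalized CPM per kilobase. Among the 5 highest were Rpl37a, a large subunit protein, at 5191, Rps25 at 3939 and Rpl36 at 3908. By coding transcript in place of all exons Rps29 led with 6714. The lowest were Rpl30 at 2.70, Rpl39l at 1.13, Rpl26 at 0.90 and Rpl3l at 0.32, with Rpl10l at 0 counts in all pools, which allows up to 1.48 normalized CPM in the shallowest one. Rpl10l and Rpl39l are known from testis and Rpl3l from muscle.

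Comparing males with females, 82 of the 86 genes passed the filter on low counts (all but Rpl10l, Rpl26, Rpl3l and Rpl39l). Of these, 80 were higher in males, 97.6%, where 53.2% of the 10865 genes tested were. The median log2 fold change was 0.59, from -0.09 to 1.33, against 0.03 over all genes tested, and the median standard error of a gene was 0.58. In edgeR (quasi-likelihood, Benjamini-Hochberg) 0 of the 82 reached the adjusted threshold of 0.05, where 0% of all genes did, and each had an adjusted p of 0.99999. At an unadjusted p under 0.05 there were also 0 of the 82, where 0.442% of all genes were, and DESeq2 gave 0 at the adjusted threshold. The same fit missed genes with the largest differences. Ddx3y on the Y chromosome, with 0 and 0 counts in females and 445 and 89 in males, had an adjusted p of 0.186 in edgeR, so 0 calls among the 82 do not show that they were alike in the sexes.

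The male pools lay far apart. In females the median gene stood at 624 and 734 normalized CPM, and in males at 568 and 1396. The lowest gene stood at 7.61 and 4.95 in females and at 5.14 and 14.6 in males. Male pool 2 was the highest pool for 78 of the 82 genes. Both male pools exceeded both female pools for 4 genes, Rpl5, Rpl7, Rpl7l1 and Rpl22l1, against 9.47% of all genes, and both lay below for 0, against 11.7%.

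**Figure D2:**
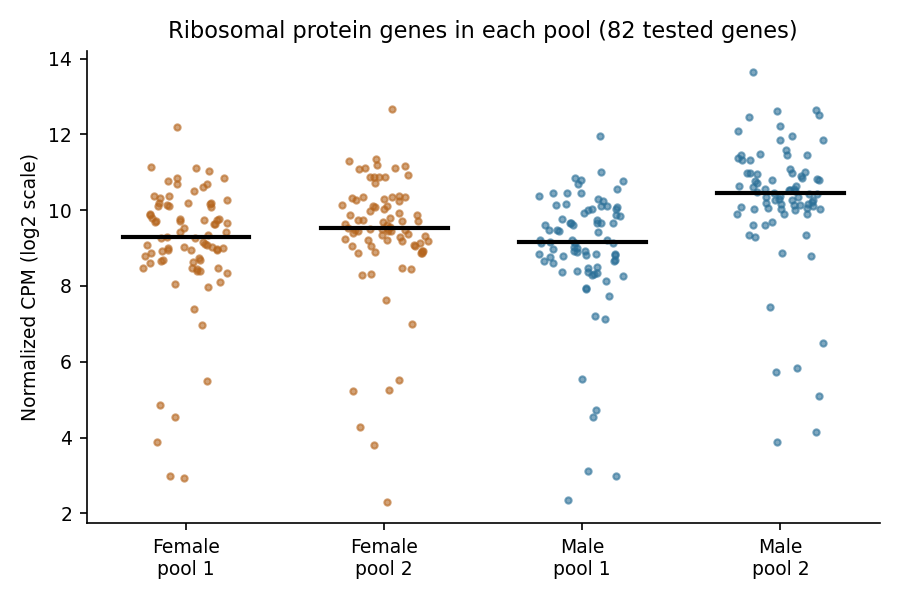
Normalized CPM of the 82 tested genes in each pool on a log2 scale. Points are genes and black lines medians. The medians were 624 and 734 for the female pools, 568 in male pool 1 and 1396 in male pool 2.

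Single pools set against each other gave opposite directions. Male pool 1 was lower than female pool 1 by a median log2 difference of -0.11 and lower than female pool 2 by -0.38, with 11 and 14 of 82 genes higher. Male pool 2 was above them by 1.28 and 0.97, with 78 and 80 genes higher. Over all genes tested the medians were -0.01 and 0.01 for male pool 1 and -0.05 and -0.006 for male pool 2. With male pool 2 left out the median of the sex fit was -0.27 and 14 of 82 genes were higher in males, against 49.4% of all genes tested. With male pool 1 left out it was 1.13 and 79 were higher, against 47.0% of all genes tested.

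In that fit the lone male pool is assumed to vary like the female pair. There 19 genes reached the 0.05 adjusted threshold of the edgeR quasi-likelihood fit, all higher in males, against 5.3% of all genes passing in that direction and 5.72% in either. The smallest adjusted p-values in edgeR belonged to Rps27l (log2 fold change 2.13, SE 0.45, adjusted p = 0.000676), Rpl39 (1.82, SE 0.44, adjusted p = 0.00407) and Rps25 (1.84, SE 0.47, adjusted p = 0.00715). It compares 1 male library with 2 female ones.

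**Figure D3:**
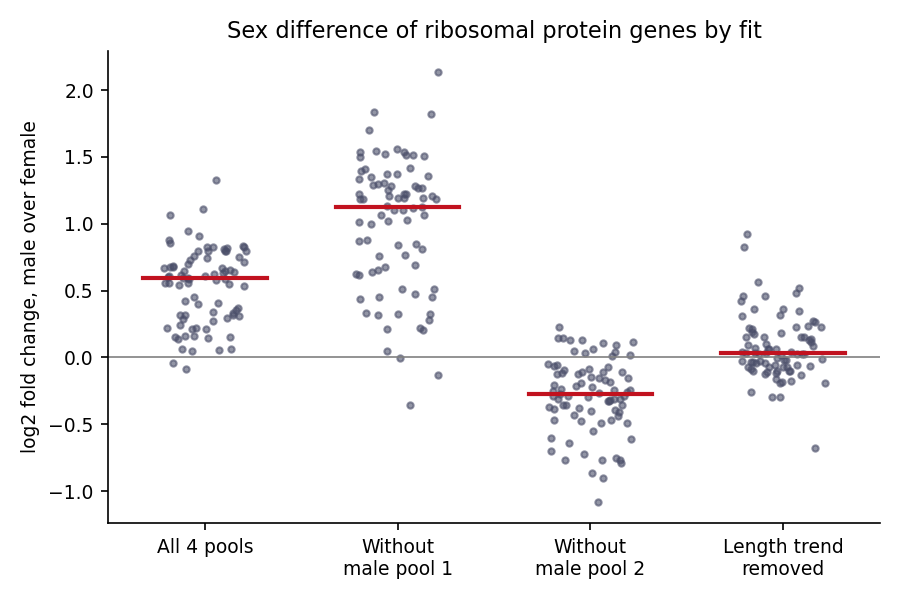
Log2 fold changes, male over female, of the 82 genes (points) with their median (red line) under 4 fits. The medians were 0.59 with all pools, 1.13 without male pool 1, -0.27 without male pool 2 and 0.03 once the trend on transcript length was removed.

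The excess of male pool 2 was graded by coding length, and female pool 2 showed the same order with smaller values. Pool 2 was above pool 1 in both sexes for 62 of the 82 genes, against 31.2% of all genes, and below it in both for 3, against 35%. The median log2 difference of pool 2 over pool 1 was 0.25 in females and 1.42 in males. Among genes with a coding sequence under 300 bases (9 genes), it was 0.65 in females and 2.29 in males. From 300 to under 450 bases (29 genes) the values were 0.40 and 1.68, from 450 to under 600 bases (19 genes) 0.24 and 1.39, and at 600 bases and over (24 genes) 0.04 and 0.41. The difference fell from class to class in both sexes.

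Spearman correlations of the pool difference with coding length were -0.62 in females and -0.88 in males over 81 genes, and -0.45 and -0.80 over the 76 mitochondrial ribosomal protein genes. Over all other genes tested, 10396 and 10404, they were -0.23 and -0.31. With transcript length the correlations over the 81 genes were weaker, -0.44 in females and -0.63 in males. They were -0.52 and -0.64 over the mitochondrial genes, and -0.29 and -0.27 over all others. All of these are descriptions, since the genes share the libraries. Other short genes also stood higher in pool 2. The 271 others under 300 bases had medians of 0.47 in females and 1.66 in males. In every length class the median of the other genes lay below that of the ribosomal protein genes, in both sexes. From 450 to under 600 bases the others had 0.08 in females and 0.44 in males, against 0.24 and 1.39. At 600 bases and over they had -0.04 and -0.18, against 0.04 and 0.41. What underlies the gradient was not tested.

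**Figure D4:**
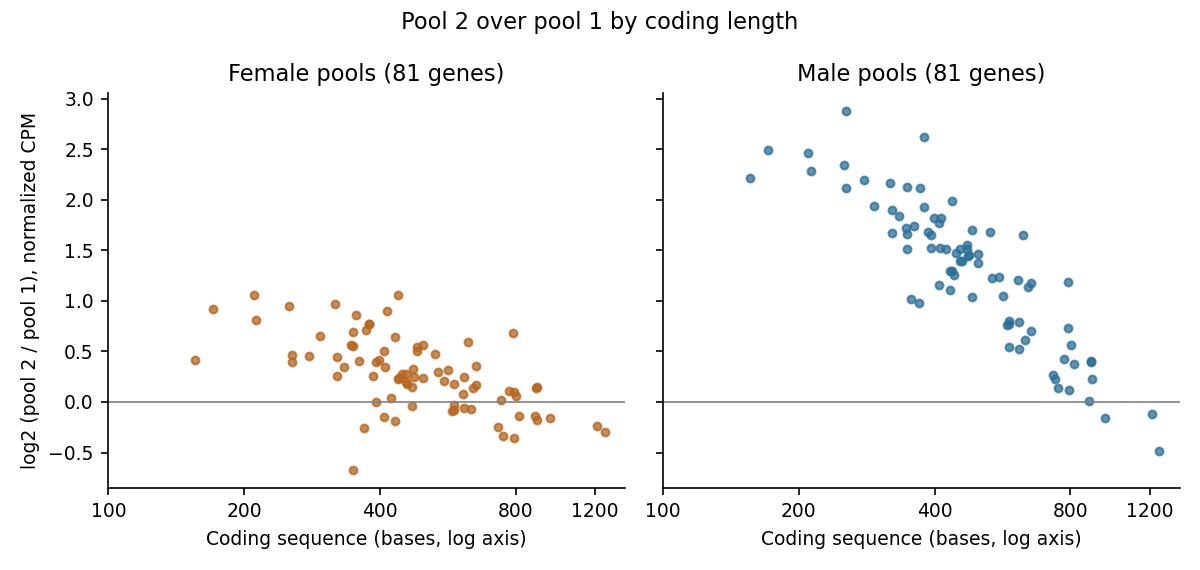
Log2 difference of pool 2 over pool 1 in normalized CPM (y) against coding length in bases on a log axis (x) for 81 genes, in females (left) and males (right). The points fall with length in both sexes, from medians of 0.65 and 2.29 under 300 bases to 0.04 and 0.41 at 600 bases and over.

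Removing from each pool its trend of level on transcript length, a step chosen after the data were seen, lowered the median sex difference to 0.03, and 47 of 82 genes were then higher in males. The members were themselves among the genes that set the trend. Rpl41, without an annotated length, had no trend removed, stayed at 0.83 and is counted among the 47. The smallest unadjusted p was 0.0940 and 0 genes passed at 0.05 either with or without adjustment.

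Ranked by the smaller of the differences in the 2 sexes, the 3 genes highest in pool 2 over pool 1 were Rps15, Rps28 and Rpl36, and the 3 lowest Rpl4, Rplp0 and Rpl3. In males alone Rps27l (2.87), Rps25 (2.62) and Rps29 (2.49) had the largest log2 differences. Rps28, a very small protein of the small subunit, had 617 and 1283 normalized CPM in female pools 1 and 2 and 506 and 2792 in male pools 1 and 2. Rps15 had 516 and 1075 in females and 485 and 1926 in males, and Rpl36 had 855 and 1675 against 690 and 3095. The ranking picks genes that were higher in pool 2 in both sexes, and in all 3 the sexes overlapped. Rpl4, one of the longest, had 1100 and 894 in females and 1095 and 784 in males, lower in the second pool in both. Rplp0 had 2096 and 1883 in females and 2041 and 1834 in males, and Rpl3, part of which reaches towards the peptidyl transferase centre, 1318 and 1120 against 1327 and 1223. They were the only 3 of the 82 that were lower in pool 2 in both sexes.

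The P stalk, the flexible arm of the large subunit that recruits elongation factors, is built from Rplp0 and copies of Rplp1 and Rplp2. The small proteins of the arm were higher in pool 2 in both sexes and Rplp0, its base, was lower. Rplp1 stood at 871 and 1292 normalized CPM in females and 776 and 2549 in males, and Rplp2 at 469 and 757 against 401 and 1752, whereas Rplp0 lay between 1834 and 2096 in all 4 pools. Their log2 fold changes between the sexes were 0.62 (SE 0.65), 0.81 (SE 0.72) and -0.04 (SE 0.45).

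The X chromosome, on which inactivation equalizes dosage between the sexes, holds 4 of the genes, Rpl10, Rpl36a, Rpl39 and Rps4x. Rpl39, at the polypeptide exit tunnel, had 350 and 467 normalized CPM in females against 312 and 1453 for males, with a log2 fold change of 1.11 (SE 0.72). Rpl36a had 267 and 318 against 246 and 787, 0.82 (SE 0.60). Rpl10, a late-joining protein of the large subunit, had 952 and 1046 against 917 and 2016, 0.55 (SE 0.53). Rps4x, with the longest coding sequence of the 4, had 537 and 577 against 573 and 954, 0.45 (SE 0.45). For each of them male pool 2 was highest and the other male pool lay below at least 1 female pool, so the sexes overlapped, and 0 of the 4 passed the test.

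Several ribosomal proteins have an expressed relative, here called its like-gene. Rpl36al, an autosomal copy of the X-linked Rpl36a, took 59.3% and 62.4% of the pair's counts in females and 59.1% and 62.7% in males. Rpl7l1, which acts in ribosome assembly, took 13.7% and 15.1% beside Rpl7 in females and 15.4% and 14.1% in males. Rpl22l1 took 21.4% and 16.04% beside Rpl22 in females and 25.02% and 17.0% in males, the lower share falling to pool 2 in both sexes. Rps4y2, which RefSeq names Rps4l, took 4.17% and 6.11% beside Rps4x in females and 3.91% and 5.28% in males. Rps27l, a p53-responsive gene, took 95.8% and 96.0% beside Rps27 in females and 96.8% and 98.1% in males, but the counts of Rps27 are uncertain, as given above. Shares are of counts and are not corrected for transcript length. Genes of the other pairs also have transcript windows found elsewhere in the genome. These made up 92.6% of windows for Rpl36a and 70.0% for Rpl36al, and 61.4% for Rpl7 and 14.8% for Rpl7l1. They made up 28.9% for Rpl22 and 65.5% for Rpl22l1, and 84.3% for Rps4x and 15.7% for Rps4y2. Whether copies bear on the count shares of these pairs was not tested.

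**Figure D5:**
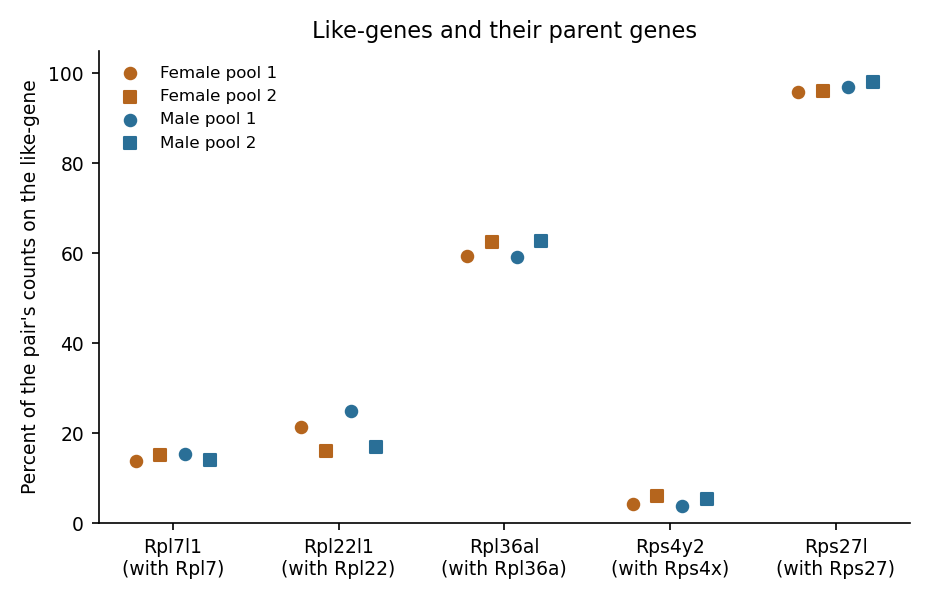
Percent of a pair's counts that fell on the like-gene rather than its parent (y) for 5 pairs, in female (brown) and male (blue) pools 1 (circles) and 2 (squares). The pools of a pair lie close together, widest for Rpl22l1, from 16.04% to 25.02%.

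The 3 smallest unadjusted p-values belonged to Rpl22l1, Rps27l and Rpl39. Rpl22l1 had 45.4 and 38.1 normalized CPM in females and 46.2 and 90.9 in males, log2 fold change 0.70 (SE 0.41), so that both male pools lay above both female pools, male pool 1 by little. Rps27l had 338 and 465 against 242 and 1775, 1.33 (SE 0.86), with the lowest and the highest pool both male. The edgeR quasi-likelihood p of Rpl22l1 was 0.129 before adjustment.

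Some of these proteins are known for roles outside bulk protein synthesis. Rpl5 and Rpl11, which bind Mdm2 and so stabilise p53, had log2 fold changes of 0.24 (SE 0.41) and 0.40 (SE 0.53). Rpl22, which is needed for development of alpha-beta T cells, had 167 and 199 normalized CPM in females and 139 and 444 in males. Rps6, the target of S6 kinases, had 1177 and 933 against 1117 and 1233, Rps3, which also binds NF-kappa B, 1161 and 980 against 1088 and 1308, and Rpsa, the laminin receptor precursor, 1759 and 1930 against 1650 and 2169. Rps19 and Rps14, mutated or lost in human anaemias, had log2 fold changes of 0.36 (SE 0.58) and 0.67 (SE 0.59), and Rpl13a, of an interferon-regulated translational complex, 0.41 (SE 0.53). Without male pool 2 the log2 fold changes were -0.33 for Rpl11, -0.43 for Rps19, -0.18 for Rps14 and -0.31 for Rpl13a, and that of Rpl5 was 0.13. Rps19bp1 had 29.1 and 45.5 against 26.4 and 57.0.

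Other genes of the pathway were read for comparison. Fau, a small subunit protein gene that the symbols miss, had 668 normalized CPM in male pool 1 and 2364 in male pool 2, and a log2 fold change between the sexes of 0.59 (SE 0.67), which was -0.58 without male pool 2. Of 76 mitochondrial ribosomal protein genes, 69 were higher with a median of 0.31. Elongation factors and other mRNAs with a TOP tract gave 11 of 15 with 0.16, ribosome biogenesis 14 of 26 with 0.01 and regulators such as Myc and Larp1 5 of 13 with -0.07. Without male pool 2 the medians were -0.05 for the mitochondrial list, 0.05 for the TOP list, 0.21 for biogenesis and 0.04 for regulators. Without male pool 1 they were 0.63, 0.20, -0.32 and -0.62. In each of these 4 lists 0 genes passed by edgeR at an adjusted p of 0.05, and 0 at an unadjusted p under 0.05. Eef1a1, the TOP elongation factor with the most counts, went the other way between the male pools, from 3056 to 1705.

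Marker lists also differed between the pools. All 7 B cell markers tested were lower in pool 2 in both sexes. Of 10 markers of dendritic cells and macrophages 7 were higher in pool 2 in both sexes, with sums of 2579 and 4330 in females and 1984 and 5099 in males, and of 8 epithelial markers 6 were. Of 7 thymocyte markers 6 were lower in pool 2 in both sexes, and the sum in male pool 1 was 1108 against 349 in male pool 2. The thymocyte sums in females were 382 and 283. Among 6 mTEC markers tested, 5 were higher in pool 2 in both sexes. The 6 fibroblast markers summed to 12.2 and 46.0 in females and 69.4 and 78.5 in males. Dendritic cells, macrophages and thymocytes carry CD45 and would, like B cells, be left out by the sort. The part of any of these markers in the level of the ribosomal protein genes was not tested.

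The promoters of the genes were searched for short motifs in RefSeq windows (GRCm38.p6, a later build than the counts), of which 65 genes had one. CTTTC, a pyrimidine run, was sought within 20 bases before and 10 after the start. On the strand that reads as the mRNA it occurred in 23.1% of the 65, against 4.95% of the 27025 genes with a window. On either strand it occurred in 26.2% against 8.83%. CCGGAAG, on either strand within the 250 bases before the start, occurred in 29.2% against 7.83%. TATAA on either strand within 50 bases before the start gave 7.69% against 7.50%, and on the mRNA strand alone 7.69% against 5.89%. AAGATGGC on either strand within the whole window gave 9.23% against 3.19%. Around the start of Rpl4 (chr9:64173367-64173396, plus strand), with CTTTC in capitals, the bases are as follows.
Rpl4: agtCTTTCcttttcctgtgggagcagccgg
A match describes letters and is not a binding site.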

How the data were processed

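Counts per gene symbol were deposited by the authors as raw counts, which they made with Trimmomatic (removal of low-quality 50-base reads), TopHat2 (alignment to mm9) and HTSeq-count. Versions, gene annotation and strand setting are not given in the sources used here. Libraries were made with the SMARTer Ultra Low kit v3. The rows that name no gene (reads outside genes, ambiguous reads, and alignments to several places, where 1 read can count more than once) made up 66.9% to 70.2% of a pool's total and were left out of the library sizes.

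Males and females were compared by edgeR 4.0.16 in R 4.3.3 (quasi-likelihood, TMM, filterByExpr with a minimum count of 10, prior count 0.125, Benjamini-Hochberg adjustment at 0.05, two-sided) on the whole table, and by DESeq2 1.42.0. The fit was tested on simulated data. Other steps used Python 3.11.15, pandas 2.3.3 and SciPy 1.17.1. The p-values test the sex difference against the spread between pools of a sex, with each gene's error drawn towards that of the other genes. Coordinates and lengths are from GENCODE vM1 (mm9), where 85 of the 86 genes matched. The length trend was a lowess on log2 transcript length per pool, used as an offset. It was fitted to log2 CPM less the gene's mean over the pools. Windows of 50 bases of each transcript were searched for exact matches on both strands of the genome outside the gene.

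The genes, lists and tests were chosen with earlier results of these data known. Named genes were X-linked, P stalk and like-genes, the 5 highest and lowest per kilobase, the 3 smallest p, the 3 highest and lowest in pool 2 over pool 1 by the smaller of the differences in the 2 sexes, and those with known roles. Some genes that this rule names are not reported here.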

Additional observations from a re-analysis of the deposited data

Results flagged for a closer look

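The symbols marked -ps, which the choice of genes left out, held signal: 5 of the 6 had over 3 counts in every pool, the level that a count of 0 allows. The counts reached 46 at most, in Rpl34-ps1 in male pool 2. These are processed copies of genes such as Rpl31, Rpl34, Rps15a and Rps19, and reads of a copy and its parent gene cannot be told apart where the bases match.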

How the results depend on the processing

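The sex difference depended on male pool 2. Leaving out each pool in turn gave a median log2 fold change of -0.27 to 1.13, a share of genes higher in males of 17.1% to 96.3%, 0 to 19 genes past the adjusted threshold in edgeR, and a male minus female difference in the share of reads of -0.52 to 4.40 percentage points. The lowest median came without male pool 2 and the highest without male pool 1. Log2 fold changes of named genes that changed sign when 1 pool was left out ranged from -0.12 to 1.002 for Rpl10, -0.24 to 1.42 for Rpl36a, -0.38 to 1.82 for Rpl39, -0.13 to 0.044 for Rplp0, -0.47 to 1.23 for Rplp1, -0.60 to 1.51 for Rplp2, -0.36 to 1.52 for Rpl36al, -0.36 to 0.81 for Rps4y2, -0.72 to 2.13 for Rps27l, -0.70 to 1.27 for Rps15, -0.90 to 1.55 for Rps28, -0.87 to 1.28 for Rpl36, -0.36 to 0.14 for Rpl4, -0.029 to 0.19 for Rpl3, -0.47 to 0.62 for Rps19bp1, -0.39 to 1.27 for Rpl22, -0.15 to 0.22 for Rpsa, -0.33 to 0.87 for Rpl11, -0.31 to 0.88 for Rpl13a, -0.43 to 0.85 for Rps19 and -0.18 to 1.19 for Rps14. Scaling by library size only gave a median of 0.36 with 91.5% higher, against 45.1% of all genes tested. Its reversed values were -0.0065 for Rpl3, -0.029 for Rps19bp1 and -0.073 for Rpsa. The length correction, added after the data were seen, gave a median of 0.03 with 57.3% higher, against 52.9% of all genes tested. Its reversed values were -0.085 for Rplp1, -0.068 for Rplp2, -0.13 for Rps15, -0.30 for Rps28, -0.29 for Rpl36, -0.19 for Rps19bp1, -0.072 for Rpl22, -0.067 for Rps6 and -0.18 for Rps19. The replicate block gave a median of 0.41 with 0 of the 82 genes past the threshold, where 17 of all 10865 genes tested were. The block with the length correction gave a median of 0.04 and reversed values of -0.090 for Rplp1, -0.069 for Rplp2, -0.12 for Rps15, -0.32 for Rps28, -0.29 for Rpl36, -0.18 for Rps19bp1, -0.071 for Rpl22, -0.082 for Rps6 and -0.18 for Rps19. The cause of these reversals was not tested. The labels do not say what a pool number stands for. Deviations of same-numbered pools correlated at 0.51 over 10850 genes and 0.73 over the 82. Upper-quartile scaling, both filters, DESeq2 and a prior count of 2 kept the direction and 0 ribosomal protein genes past the threshold. The median level per kilobase moved from 549 to 868 with the longest transcript and to 1082 with a CCDS transcript. In the main edgeR fit of all 4 pools, 0 of the 10865 genes tested passed, the 3 Y chromosome genes tested included. Scaling by library size only let 5 of the 10865 pass. With no filter 26 of 17866 genes passed, and DESeq2 gave 3 of 17866. Of the genes that passed in these fits, 0 were ribosomal protein genes.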
